A study of Mus musculus with 2 samples.

Results

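Embryonic mouse liver at day 13.5 held 1526 stretches of open chromatin, found in both replicates, in intergenic sequence more than 100 kb from the start of every protein-coding gene. They are 3.33% (95% Wilson interval 3.17 to 3.50%) of the 45831 regions where peaks of both libraries overlapped by 1 bp or more. A region was counted when the midpoint of the merged peaks lay outside all protein-coding genes of GENCODE M21, farther than 100 kb from any of their transcript starts, and more than 1 kb from the start of a non-coding gene or pseudogene. Among the shared regions, position alone chose these. The 10631 shared intergenic regions between 1 kb and 100 kb from a protein-coding start are called near intergenic here and serve as the comparison, beside all 45831 shared regions.

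The assay was DNase-seq. The enzyme DNase I cuts DNA that nucleosomes leave exposed and the cut sites are sequenced. Both libraries belong to 1 group of 2 biological replicates on a mixed C57BL/6N and 129 background, labelled wild type with the A85 YAC in multiple copies. A YAC is a yeast artificial chromosome. Its content is not stated, and both libraries carry it. Both replicates carry 1 donor label, so the spread between them may be technical. Replicate 1 had 76130 peaks and replicate 2 had 73852. Each value below is the authors' peak signal, whose normalization is not stated, for the highest peak of a region. It ran in whole multiples of 0.0127 in replicate 1 and of 0.00604 in replicate 2, so the median far intergenic region stood on a count of 50 in replicate 1 and of 94.5 in replicate 2. Intervals of values are 95% Poisson intervals of these counts, and all intervals cover counting error only. With 1 group there was no condition to test, and regions of 1 library are not replicates, so classes are compared by their values and intervals without p-values.

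Open chromatin away from gene starts holds enhancers, which bind transcription factors and act on promoters over long distances, and insulators, where CTCF binds and anchors chromatin loops. The liver at this stage is the main site of blood formation in the embryo, and most of its cells are red cell precursors, in which GATA1, TAL1 and KLF1 act together at enhancers. Hepatoblasts, the precursors of hepatocytes, lie among them, with macrophages, endothelial and mesenchymal cells. Bulk tissue mixes these cell types. Of the markers used to check the label, all 5 erythroid genes (Gata1, Tal1, Klf1, Slc4a1 and Epor) had a region of both replicates at a start, within 1 kb. Of 5 hepatoblast genes Afp, Foxa3 and Trf had one and Alb and Hnf4a did not. Kdr was the 1 of 3 endothelial genes with one, and 0 of 3 macrophage and 0 of 5 off-tissue genes had one.

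The sequences of the highest regions are given on build GRCm38.p6 from the RefSeq assembly, plus strand. Chosen for their values, these regions do not stand for the typical far intergenic region. They are the 6 highest regions whose median 31-base word occurs once in the assembly and that hold a footprint. The one on the X chromosome is also the highest with a CTCF match in a footprint. Letters are in lower case, and capitals mark footprints, short protected stretches inside a peak, that overlapped between the replicates. Regions over 300 bases are cut to their central 300.
chr1:102628161-102628340, nearest to Cdh20: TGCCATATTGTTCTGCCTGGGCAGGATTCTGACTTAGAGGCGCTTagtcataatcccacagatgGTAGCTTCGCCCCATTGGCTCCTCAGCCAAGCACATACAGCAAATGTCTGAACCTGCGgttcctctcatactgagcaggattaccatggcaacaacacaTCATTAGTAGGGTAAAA
chr1:122357121-122357300, nearest to Ddx18: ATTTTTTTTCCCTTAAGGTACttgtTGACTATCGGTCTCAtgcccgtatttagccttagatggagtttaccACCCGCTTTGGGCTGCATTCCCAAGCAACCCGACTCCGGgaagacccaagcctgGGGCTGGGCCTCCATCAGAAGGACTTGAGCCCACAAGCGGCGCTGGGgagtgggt
chr4:95161230-95161529, nearest to Jun: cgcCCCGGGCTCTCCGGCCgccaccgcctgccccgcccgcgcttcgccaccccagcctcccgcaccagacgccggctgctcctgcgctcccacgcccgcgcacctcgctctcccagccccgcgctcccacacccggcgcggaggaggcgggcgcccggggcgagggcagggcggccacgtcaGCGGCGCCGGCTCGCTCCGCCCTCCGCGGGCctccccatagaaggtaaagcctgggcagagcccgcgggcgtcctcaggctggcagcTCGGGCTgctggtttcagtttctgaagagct
chrX:94865621-94865840, nearest to Zxdb: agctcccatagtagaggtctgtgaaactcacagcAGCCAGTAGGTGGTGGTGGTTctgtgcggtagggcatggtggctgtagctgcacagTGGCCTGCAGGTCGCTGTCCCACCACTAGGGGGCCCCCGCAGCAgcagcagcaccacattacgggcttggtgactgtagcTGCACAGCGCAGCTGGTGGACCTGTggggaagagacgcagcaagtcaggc
chr12:3109801-3109920, nearest to Rab10: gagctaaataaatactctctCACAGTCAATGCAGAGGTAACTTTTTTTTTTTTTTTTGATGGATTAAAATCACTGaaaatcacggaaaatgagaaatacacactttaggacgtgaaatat
chr7:64048681-64048900, nearest to Trpm1: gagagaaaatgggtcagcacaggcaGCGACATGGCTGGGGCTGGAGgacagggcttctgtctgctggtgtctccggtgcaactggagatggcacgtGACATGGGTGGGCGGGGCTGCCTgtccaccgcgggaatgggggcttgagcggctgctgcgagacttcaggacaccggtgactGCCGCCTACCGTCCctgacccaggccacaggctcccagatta

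The first pair of sequences, nearest to Cdh20 and to Ddx18, stands apart from the others. The region 2140.3 kb from the start of Cdh20, a cadherin gene, reached a value of 20.4 in replicate 1 and 15.6 in replicate 2, and the one 789 kb from Ddx18, an RNA helicase gene, 11.7 and 11.1. Their median word occurs once, but blastn found 9 and 4 matches of them in the assembly at 90% identity or more over at least 50% of their length, themselves included. Of the 1526 regions 1 matched the ribosomal RNA locus annotated on chromosome 17, a region nearest to Samd9l with values of 5.04 and 3.92 and 99.1% identity over 111 bases. None of the 1526 matched the mitochondrial genome. The ribosomal locus searched spans 5815 bases, and no full ribosomal DNA repeat was available. Likeness of the first pair of sequences to the rest of such a repeat was not tested.

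Jun lies nearest to the next sequence, at chr4:95161201-95161560, 109 kb upstream of its start and inside the antisense RNA gene Junos. Jun encodes a subunit of the AP-1 transcription factor. The region reached 9.14 (8.48 to 9.83) in replicate 1 and 5.19 (4.85 to 5.55) in replicate 2, and 75.3% of its bases were G or C. Its sequence carries 3 GC boxes, the letters GGGCGG on either strand, and the one at bases 199 to 204 lay in a footprint. The sequence on the X chromosome, 141 kb from the zinc finger gene Zxdb, holds a match to the CTCF motif, CCACTAGGGGGC at bases 113 to 124, inside a footprint. Its values were 7.08 and 5.93.

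The sequence on chromosome 12, 200.1 kb from Rab10 near the start of the chromosome, was 70% repeat-masked and only 30% G or C, with values of 5.27 and 7.65. Its median word occurs once in the assembly, but copies of a repeat that the assembly lacks were not counted. Whether its values came from such copies was not tested. The last one lies in the interval between Klf13, a Krüppel-like factor, and Trpm1, and has a GC box in a footprint and values of 6.83 and 5.89.

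The highest value of all, 67.4 in replicate 1 and 47.7 in replicate 2, belonged to chr3:5860361-5860530, 110 kb from Gm8797. Its median word occurs 7 times in the assembly and blastn found 20 matches, and how reads of such copies were placed is not stated. A region near Rnf219, inside the long non-coding RNA D130009I18Rik, also had 7 word copies and 17 matches, with values of 7.77 and 8.28. In all, 51 of the 1526 regions had a median word with more than 1 copy, and 96.7% were single copy against 98.0% of near intergenic regions and 98.5% of all shared regions. Among the other high single-copy regions, one 147 kb from Ppp6c, a phosphatase subunit gene, had 7.13 and 5.46, and one 257 kb from Atp10a had 6.09 and 3.39 with 5 overlapping footprints. One 146 kb from Cartpt, a neuropeptide gene, had 6.29 and 3.02 and the GATA letters AGATAA. Leaving out the 51 kept the medians at 0.633 in replicate 1 and 0.573 in replicate 2.

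The far intergenic sequence is large and sparsely opened. Bases that meet the position rule made up 817 Mb, or 30.9% of the sequenced genome, and held 1.87 shared regions per Mb, against 14.6 per Mb in the 729 Mb of near intergenic sequence. Density fell with each step of distance. It was 23.97 per Mb at 1 to 10 kb from a protein-coding start, 14.7 at 10 to 50 kb, 7.61 at 50 to 100 kb, 3.58 at 100 to 200 kb, 1.69 at 200 to 500 kb and 0.398 beyond 500 kb. The median far intergenic region lay 179.8 kb from the nearest start, with quartiles of 132 and 275 kb, and 97 regions lay beyond 500 kb. The farthest lay 2195 kb away.

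**Figure D1:**
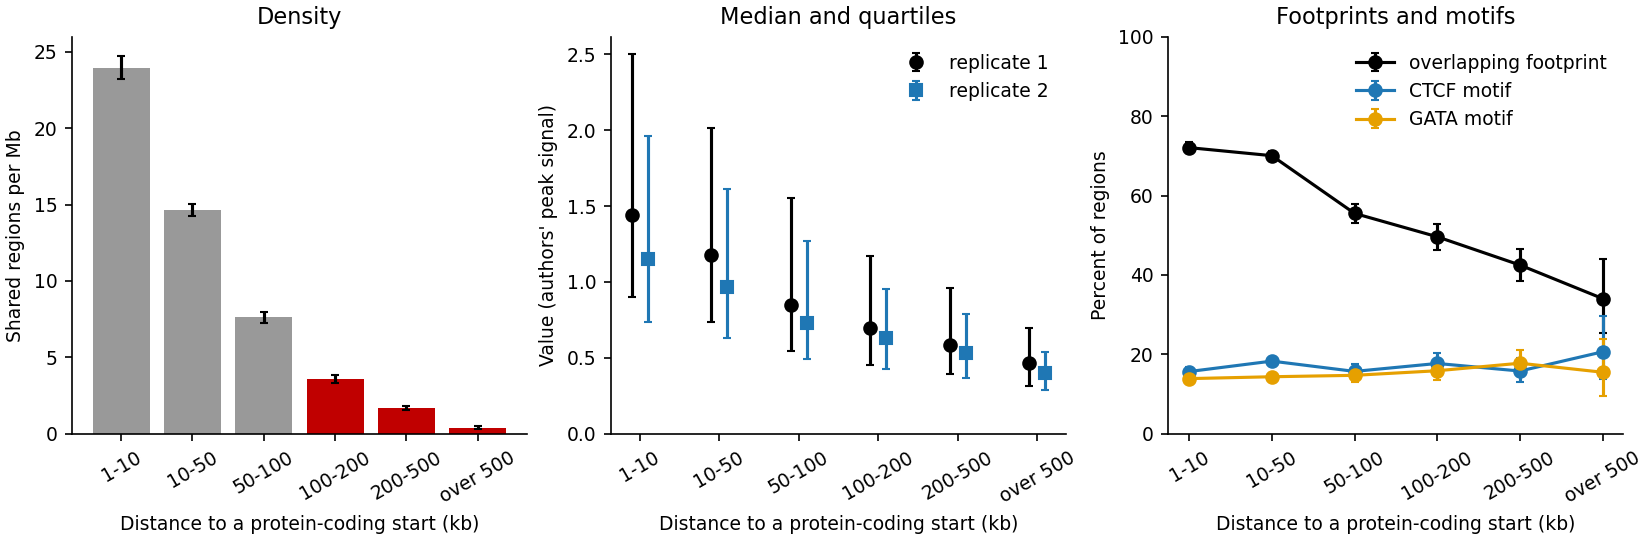
Shared intergenic regions by distance to the nearest protein-coding start (kb): density per Mb with 95% Poisson intervals (near in grey, far in red), median value with quartiles in each replicate, and percent with an overlapping footprint, a CTCF motif or a GATA motif with 95% Wilson intervals. Density fell to 0.398 per Mb beyond 500 kb and the footprint share to 34.0%, while the 2 motif shares stayed between 13.9 and 20.6%.

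Chromosomes differed in how densely their far sequence was opened. Chromosome 13 had the most, 114 regions or 3.10 per Mb, followed by chromosome 10 with 2.77 and chromosome 16 with 2.66. The X chromosome had 35 regions, 0.615 per Mb, and the Y chromosome 4, 0.0697 per Mb. Among autosomes chromosome 19 was lowest at 1.32 per Mb with 15 regions. Sex was not recorded for these embryos, and the part of the Y chromosome that reads can be placed on uniquely was not measured.

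Values were low. The median was 0.633 in replicate 1 (quartiles 0.418 and 1.08, range 0.165 to 67.4) and 0.570 in replicate 2 (quartiles 0.392 and 0.874, range 0.103 to 47.7). Near intergenic regions had medians of 1.20 and 0.984, and all shared regions 1.44 and 1.24. Within the far sequence the median declined further with distance, to 0.468 in replicate 1 and 0.398 in replicate 2 beyond 500 kb. In the order of all shared regions by the geometric mean of both values, 891 far intergenic regions (58.4%) fell in the lowest of 5 classes of equal size and 22 in the highest.

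Low values went with poor recurrence. Of 7016 far intergenic regions with a peak in either library, 21.8% (20.8 to 22.7%) were shared, while 2869 had a peak in replicate 1 only and 2621 in replicate 2 only. The shared proportion was 44.4% for near intergenic regions and 46.2% for all regions. The authors' shorter peak lists covered 770 of the 1526 regions in both replicates (50.5%), against 65.5% of near intergenic and 71.5% of all shared regions. The lowest deposited false discovery rate in a region had a median of 7.2e-07 in replicate 1 and 1.7e-04 in replicate 2.

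In form the far regions resembled other intergenic ones. Their median width was 200 bp, as in near intergenic regions, and their total length 0.351 Mb. They were 50.5% G or C at the median, against 51.9% near genes and 55.5% over all shared regions, which include promoters. The ratio of observed to expected CpG was 0.269, against 0.284 in near intergenic and 0.417 in all shared regions. The body of an annotated non-coding gene held 277 of them (18.2%, 16.3 to 20.2%), against 11.4% of near intergenic regions. Those 277 had medians of 0.671 and 0.579, and the others 0.633 and 0.567.

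Footprints mark where a bound protein shields a few bases from DNase I inside a peak. At least 1 footprint was deposited in 1016 far regions (66.6%) in replicate 1 and in 1343 (88.0%) in replicate 2, and 103 (6.75%) had none in either. In 702 regions, 46.0% (43.5 to 48.5%), footprints of the replicates overlapped, against 68.5% of near intergenic and 66.4% of all shared regions. A single overlapping footprint was found in 463 regions, a pair in 175, 3 in 52 and 4 or more in 12. The 1019 overlapping footprints had a median width of 21 bp.

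Footprints were commoner at higher values, and within classes of value the shares of far and near regions were close. In the lowest of the 5 classes 22.2% (19.6 to 25.1%) of far intergenic regions had an overlapping footprint, against 25.2% (23.6 to 27.0%) of near intergenic regions. The shares in the next 4 classes were 69.2, 85.8, 95.8 and 100% for far regions, against 64.3, 83.9, 94.1 and 99.7% for near ones. The intervals of far and near regions overlapped in each of the 5 classes. Of the near intergenic regions 23.5% were in the lowest class, against the 58.4% of far ones.

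Transcription factor motifs were searched as fixed letters on both strands in the 200 bp around each midpoint, and as a local background in windows of the same length 1 kb to either side. A match is a description of the sequence and not a binding site. Flanks were not matched to the regions in G and C content, and its part in the motif shares was not tested. CTCF, the insulator protein, had a match in 262 far regions, 17.2% (15.4 to 19.1%), against 0.0983% of their flanks, 17.0% of near intergenic regions and 9.59% of all shared regions. In footprints it was the leading long motif as well, with a match in 126 of 1019 (12.4%, 10.5 to 14.5%), against 11.5% of footprints in near intergenic regions and 4.81% over all shared regions. By distance the CTCF share ran between 15.6 and 18.3% up to 500 kb and was 20.6% in the 97 regions beyond.

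The GATA motif AGATAA, bound by GATA1 and GATA2, was in 252 far regions, 16.5% (14.7 to 18.5%). It was in 12.9% (11.7 to 14.1%) of their flanks, 14.2% (13.6 to 14.9%) of near intergenic and 11.1% of all shared regions. The joint motif of an E-box part and a GATA site a few bases apart, whose GATA side overlaps AGATAA and which TAL1 and GATA1 bind as a complex in red cell precursors, had a match in 81 regions, 5.31% (4.29 to 6.55%), against 1.28% (0.936 to 1.74%) of flanks, 4.21% (3.85 to 4.61%) of near intergenic regions and 3.27% of all shared regions. In footprints, AGATAA was in 3.73% (2.73 to 5.08%) of those in far regions, 2.14% (1.90 to 2.40%) near genes and 1.24% overall. The intervals of far and near regions overlapped for both motifs in the windows and did not for AGATAA in footprints.

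Some of the other motifs were above the flanks too. The KLF motif CCNCNCCC, which KLF1 and KLF3 bind, was in 23.5% of far regions, 15.4% of flanks, 28.6% of near regions and 40.8% of all shared regions. The GC box, whose letters can overlap those of KLF and which SP and KLF proteins bind, was in 11.1, 3.28, 14.0 and 30.2% of the same sets. For NFE2, a regulator of globin and platelet genes that binds TGAGTCA, the shares were 5.18, 3.18, 5.68 and 4.17%. The ETS motif CCGGAAG was in 2.23, 0.852, 2.33 and 5.94%, and GC boxes and ETS sites are common at promoters. PU.1, an ETS factor of myeloid cells with the letters GAGGAAGT, stood at 1.90, 0.918, 2.10 and 1.84%. For RUNX, TGTGGTT, and for AP-1, TGANTCA, which includes the NFE2 letters, the intervals of far regions and flanks overlapped, with 5.37 and 6.75% of far regions, 4.16 and 6.00% of flanks and 4.02 and 5.48% of all shared regions.

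For hepatocyte factors the intervals of far regions and flanks overlapped. Letters for FOXA, TGTTTAC, were in 2.49% (1.82 to 3.40%) of far regions and 2.59% (2.08 to 3.22%) of flanks, and for CEBP, TTGCNNAA, in 9.57 and 9.24%. Over all shared regions they were in 2.06 and 6.43%. HNF4 letters, CAAAGTCCA, were in 7 far regions and 0.244% of all shared regions, and the HNF1 and NFI motifs in 1 far region each. The motifs of MEIS (TGACAG), STAT (TTCNNNGAA), TEAD (CATTCCA) and SOX (ACAAAG) proteins had intervals that overlapped those of the flanks, and were in 13.1, 4.83, 2.25 and 11.4% of all shared regions. The short E-box letters CANNTG were in 70.2% of far regions, 65.2% of flanks and 61.0% of all shared regions. Absence of these letters in a window says nothing about the factor.

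**Figure D2:**
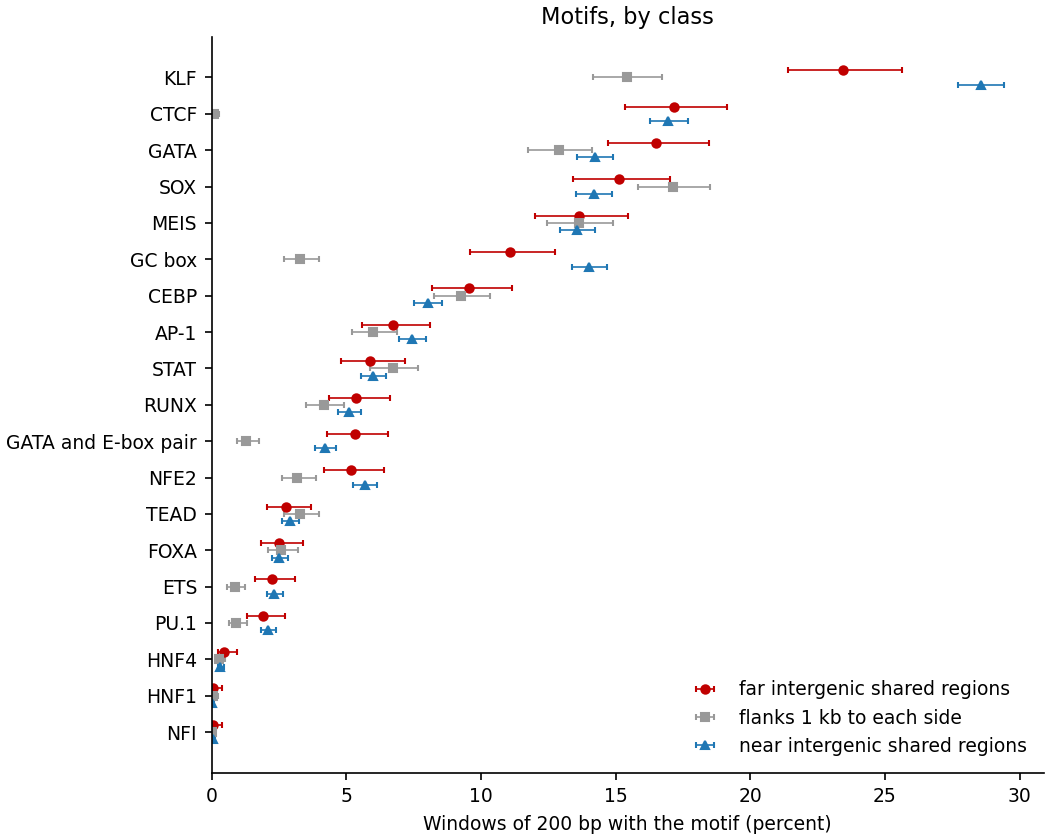
Percent of 200 bp windows with each motif, in 1526 far intergenic shared regions (red), windows 1 kb to either side of them (grey) and 10631 near intergenic shared regions (blue), with 95% Wilson intervals. CTCF had the widest gap between regions and flanks, 17.2 against 0.0983%, and the joint GATA and E-box motif stood at 5.31 against 1.28%.

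The replicates differed more at far than at near intergenic regions. Ratios are log2 of replicate 1 over replicate 2 after the median of all shared regions was set to 0. Far intergenic regions past 2-fold higher in replicate 1 numbered 154, 10.1% (8.68 to 11.7%), where the share over all shared regions was 5.64%. Those past 2-fold higher in replicate 2 numbered 76, 4.98% (3.997 to 6.19%), against 3.02% over all shared regions. Near intergenic regions had 7.58% and 2.34%, and regions inside genes away from starts 9.89% and 2.01%. The SD of the log2 ratio was 0.73, against 0.60 for near intergenic and 0.57 for all shared regions. Across the 1526 regions the log2 values of the replicates had a Pearson r of 0.736 and a Spearman rho of 0.665, against 0.922 and 0.889 over all shared regions, as a description over regions that share the same 2 libraries. The median count was 50 in replicate 1 and 94.5 in replicate 2 at far regions, against 95 and 163 at near intergenic ones, and the part of these lower counts was not tested.

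The side on which a far region stood went with its motifs. Among the 154 regions higher in replicate 1, 43.5% had AGATAA, 24.03% the joint GATA and E-box motif and 3.90% CTCF. Among the 76 higher in replicate 2 the shares were 7.89, 2.63 and 25%, and among those within 2-fold 13.8, 3.24 and 18.3%. Their G and C content had medians of 48.0, 54.5 and 50.6% in the same order. The relation between motifs and replicates was noticed in these data before it was tabulated.

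The 81 regions with the joint GATA and E-box motif had a median of 1.29 (quartiles 0.671 and 2.21) in replicate 1 and 0.573 (0.356 and 0.954) in replicate 2. The median centred log2 ratio was 0.91, and 37 of the 81 were past 2-fold higher in replicate 1 while 2 were past it in replicate 2. Regions with AGATAA had a median ratio of 0.57 and those with NFE2 0.35. CTCF regions went the other way, with medians of 0.582 and 0.664 and a ratio of -0.25. Near intergenic regions showed the same order, with ratios of 0.69, 0.52, 0.30 and -0.15 for the same 4 motifs.

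**Figure D3:**
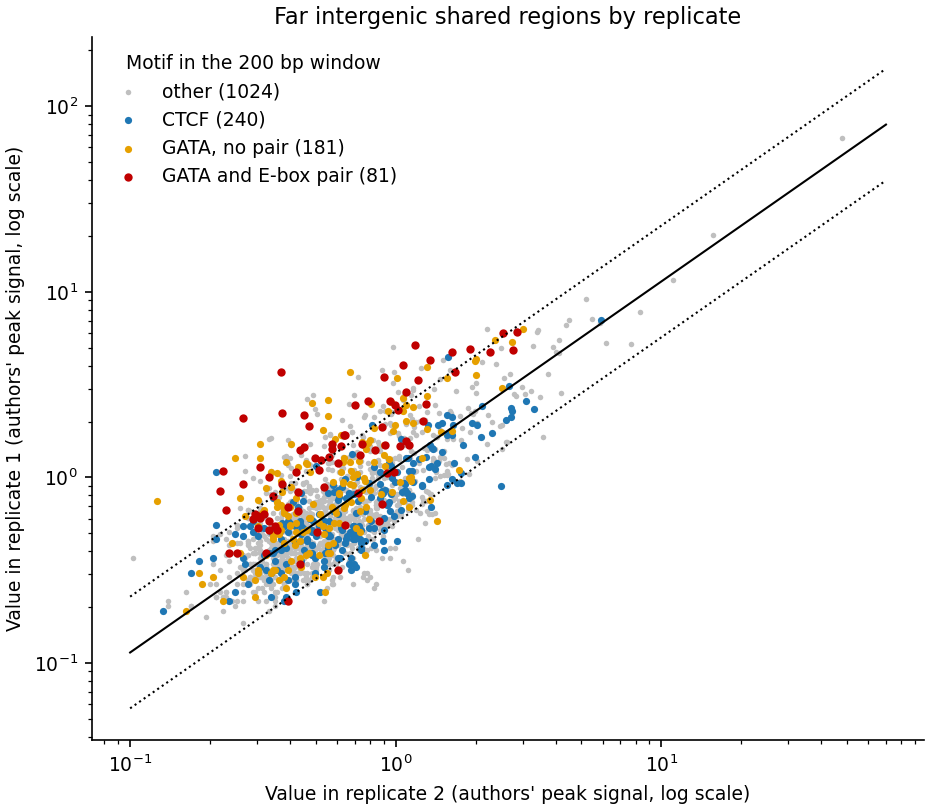
Value of each of the 1526 far intergenic shared regions in replicate 1 (vertical) against replicate 2 (horizontal), log scales, coloured by motif; a region with several motifs has the colour of the joint GATA and E-box motif first, then GATA, then CTCF. The solid line is the median ratio of all shared regions and the dotted lines are 2-fold to either side. Regions with the joint motif lie mostly above the line, and 37 of 81 lie past 2-fold.

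**Figure D4:**
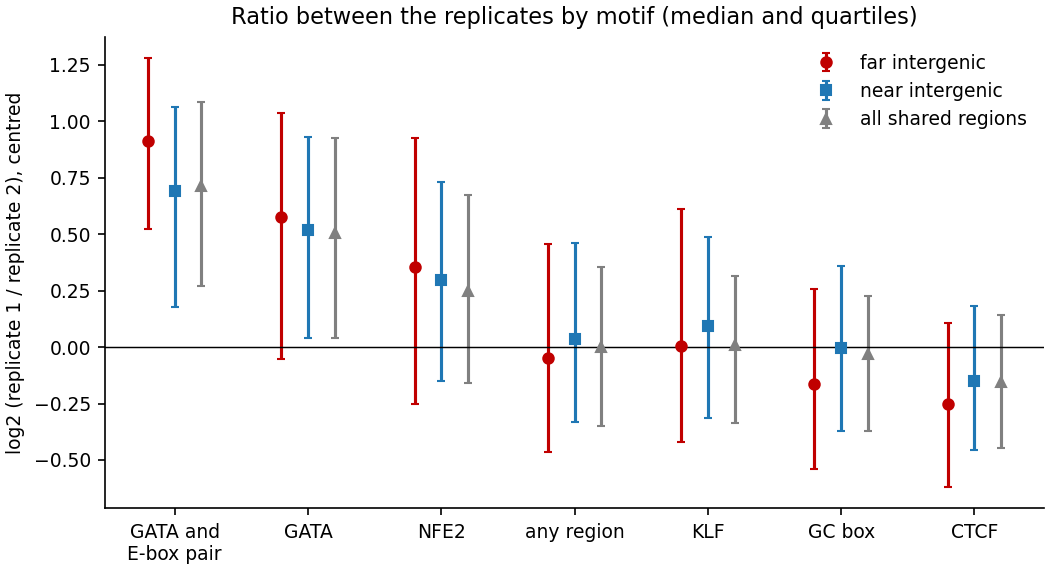
Centred log2 ratio of replicate 1 over replicate 2 by motif, median and quartiles, for far intergenic, near intergenic and all shared regions. Far intergenic regions with the joint GATA and E-box motif have a median of 0.91 and those with CTCF -0.25.

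Far regions found in only 1 library differed in AGATAA in the same direction. Of 2869 far regions with a peak in replicate 1 only, 22.3% (20.8 to 23.9%) had AGATAA and 6.45% the joint motif. Of 2621 with a peak in replicate 2 only, 5.80% (4.97 to 6.76%) had AGATAA and 1.11% the joint motif. CTCF did not follow, with 3.799% of the regions of replicate 1 only and 1.64% of those of replicate 2 only, against 17.2% of the shared regions. Median values of the regions of 1 library were low, 0.304 in replicate 1 and 0.223 in replicate 2. Their G and C content had medians of 48.0% for replicate 1 only and 54.9% for replicate 2 only, against 50.5% of the shared regions. The part of base composition in the AGATAA shares was not tested.

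Values at the erythroid markers moved the same way. Summed over the 5 genes, the highest shared region within 1 kb of a start had 44.6 in replicate 1 and 25.2 in replicate 2, with centred log2 ratios between 0.44 (Gata1) and 0.81 (Slc4a1). The 3 hepatoblast markers with such a region summed to 14.4 in replicate 1 and 10.4 in replicate 2. Their centred log2 ratios were -0.21 (Afp), -0.29 (Trf) and 0.41 (Foxa3), and that of the endothelial marker Kdr was -0.43. The sums are not centred, and the median log2 ratio of all shared regions was 0.19 before centring. The G and C content of far regions also differed between the sides, as given above. More red cell precursors in a sample, more open chromatin per cell and a technical difference between the libraries cannot be told apart in these data. The part of each in the ratios of far regions was not tested.

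Single regions carried ratios well past these medians, and are named here after their values were seen. The largest in favour of replicate 1 was at chr7:74928661-74928880, 219 kb from Sv2b, which encodes a synaptic vesicle protein, with 3.70 in replicate 1 and 0.368 in replicate 2. The next were near Dmac1, with 2.10 and 0.266, and near Ptger4, a prostaglandin receptor gene, with 2.21 and 0.374. All 3 had AGATAA, as did 5 of the 8 with the largest such ratios. Of the 3 without it, the one near Nfe2l3 had 2.80 and 0.489. The largest in favour of replicate 2 was 405 kb from Mgmt, a DNA repair gene, with 0.316 and 1.11. The next lay near Btbd3, with 0.253 and 0.827, and neither had AGATAA or CTCF.

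Far regions were spread over many genes, with a few rich intervals. They were nearest to 856 protein-coding genes, 508 of which had 1 region and 46 of which had 5 or more. They lay in 703 intervals between neighbouring protein-coding genes, of 547 kb at the median, and 57 intervals with 5 or more held 419 of them. In 55 chains of 3 or more regions, each within 20 kb of the next, stood 218 regions (14.3%), and 1024 (67.1%) had no neighbour within 20 kb. Nearest in sequence does not mean regulated, and no contact or expression data were part of the study.

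Myc, which drives growth of blood progenitors, was nearest to 10 regions, 135 to 341 kb downstream of a start. All 10 lay in the body of Pvt1, a long non-coding RNA gene beside Myc. Values ran from 0.734 to 5.48 in replicate 1 and from 0.386 to 2.35 in replicate 2, and 5 of the 10 had AGATAA. The highest, at chr15:62158841-62159240, had 5.48 and 2.35, and the next, at chr15:62221121-62221460, had 4.21 and 1.98, both with AGATAA and a footprint. After a long stretch without a far region, 2 regions lay 1658 and 1662 kb past the end of Myc, nearest to Gsdmc, with 1.19 and 3.09 in replicate 1 and 0.561 and 2.99 in replicate 2. An enhancer cluster active in blood stem cells is known far downstream of mouse Myc, and whether it holds these 2 regions was not looked up.

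Runx1 encodes a factor needed for the first blood stem cells. It was nearest to 10 regions, 301 to 371 kb upstream, and 9 of them formed the chain with most regions, within 21.4 kb. In 4 of the 10 the values were 4.02, 2.01, 5.16 and 3.47 in replicate 1 and 1.07, 1.26, 1.18 and 0.905 in replicate 2. Each of these 4 had both AGATAA and the joint GATA and E-box motif. Their centred log2 ratios were 1.73, 0.49, 1.95 and 1.75. The other 6 lay between 0.620 and 0.911 in replicate 1 and between 0.598 and 0.827 in replicate 2, with ratios from -0.60 to 0.08. Of these 6, 1 had AGATAA, at 0.709 and 0.646, and none the joint motif. Among these 10 regions the higher values and the larger ratios sat on the same 4.

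The interval between Tbc1d1, a regulator of glucose uptake, and Klf3, a Krüppel-like factor expressed in red cell precursors, held 15 regions. Upstream of Klf3 lay 8 of them, 101 to 235 kb from its start. The highest of these, at chr5:64587861-64588220, had 4.92 in replicate 1 and 1.90 in replicate 2 and the joint GATA and E-box motif. Nearer to Tbc1d1 lay 3 higher ones, with 6.23, 5.49 and 5.30 in replicate 1 and 3.43, 4.11 and 6.18 in replicate 2. None of those 3 had AGATAA, and their ratios were 0.67, 0.23 and -0.41. CTCF letters were in none of the 15.

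Between Npvf, a neuropeptide gene, and Nfe2l3, which encodes an NF-E2-related factor, there were 11 regions. A chain of 6 lay 254 to 264 kb upstream of Nfe2l3, with up to 7.06 in replicate 1 and 4.47 in replicate 2. The microRNA gene Mir148a lies in the same interval, and 91.2 kb separated its start from the highest of the chain. Another region, at chr6:51270921-51271160, lay 1.13 kb from the start of Mir148a, just past the exclusion at non-coding starts, with 6.67 and 4.37. One more, near Npvf at chr6:50890821-50891160, had 6.00 and 2.54 and the joint GATA and E-box motif.

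**Figure D5:**
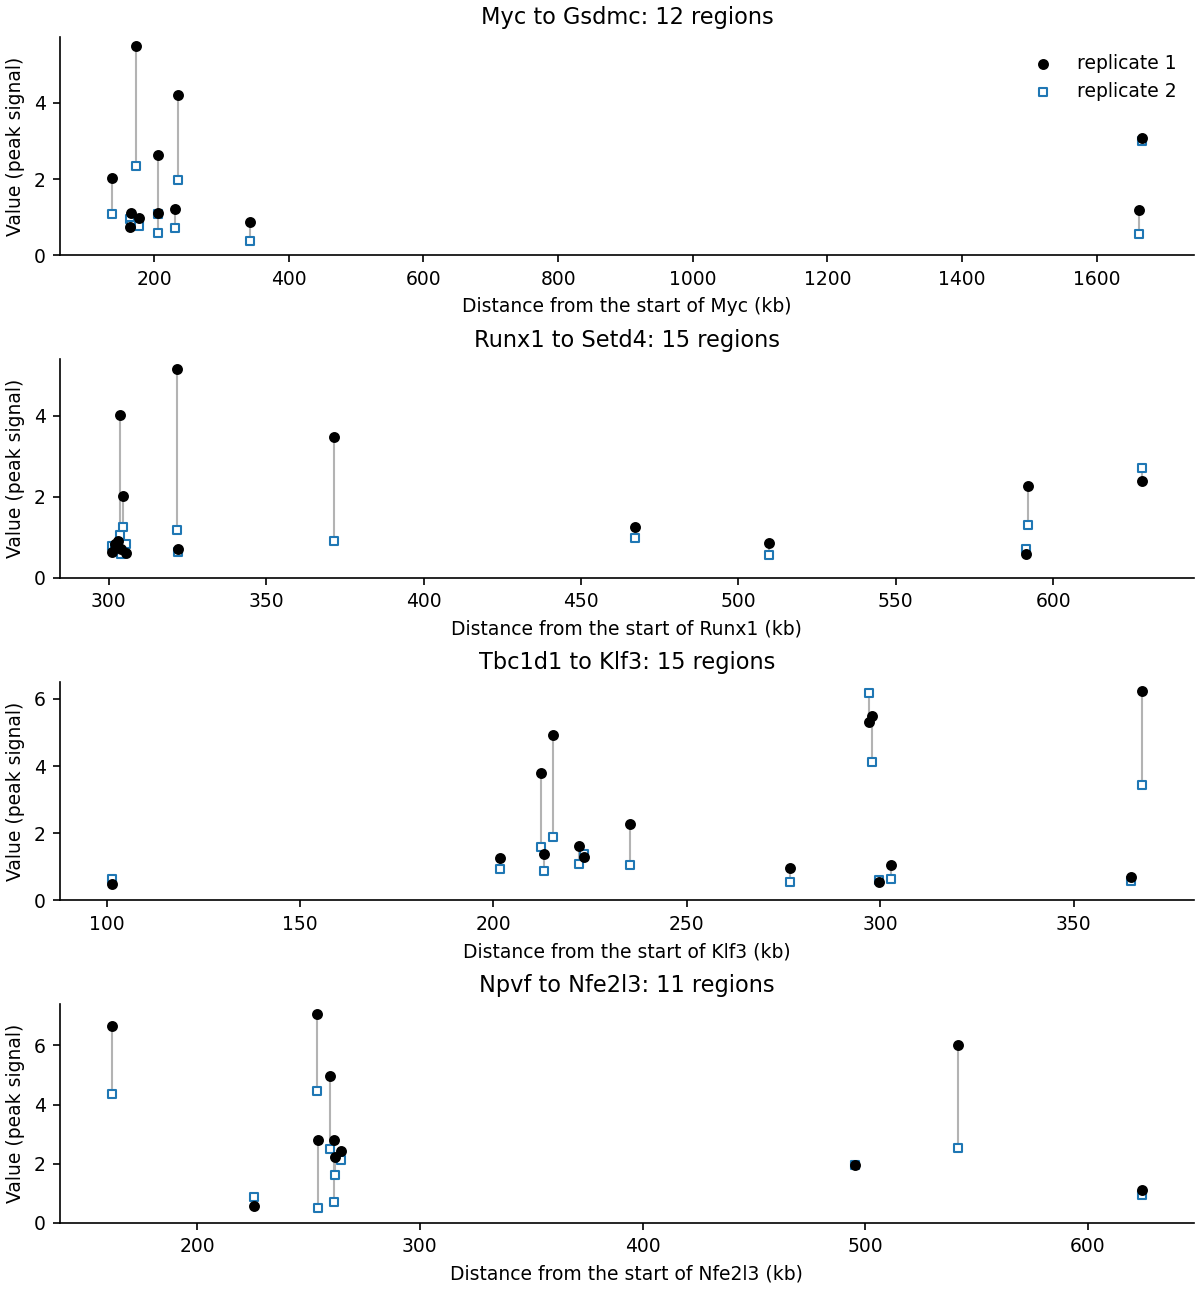
Values of the far intergenic shared regions in 4 intervals between protein-coding genes, by distance (kb) from the annotated 5′ end of Myc, Runx1, Klf3 or Nfe2l3; filled circles are replicate 1, open squares replicate 2, and each line joins 1 region. In the Runx1 interval the values of 4.02, 5.16 and 3.47 in replicate 1 stand beside 1.07, 1.18 and 0.905 in replicate 2.

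Jun had a chain of 5 regions 102 to 110.5 kb upstream, all inside Junos, with 1.28 to 9.14 in replicate 1 and 0.924 to 5.19 in replicate 2. Mycn, a relative of Myc, and Fam49a bounded 9 regions. The 8 nearer to Fam49a had a median ratio of 1.13, and the most unequal one, at chr12:12570921-12571120, had 3.81 in replicate 1 and 0.887 in replicate 2. It carries PU.1 and RUNX letters but no AGATAA. Between Mbnl1, a splicing regulator gene, and P2ry1, a nucleotide receptor gene, 9 regions reached 6.27 and 2.82.

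The interval with most regions by count lay at the T cell receptor alpha locus. Between Olfr1507, an odorant receptor gene, and Dad1, a subunit gene of oligosaccharyltransferase, 24 regions lay over 1739.7 kb. Receptor segments are annotated apart from protein-coding genes, and the rule did not count their starts. Over the genome 20 far regions lay within 1 kb of an immune receptor segment and 6 inside one. Values in the interval ran from 0.266 to 2.01 in replicate 1 and from 0.211 to 1.76 in replicate 2, and 11 of the 24 had an overlapping footprint. Medians were 0.949 and 0.640 for the 17 regions nearer to Dad1, and 0.633 and 0.447 for the 7 nearer to Olfr1507. More than 1 word copy was found in 5 of the 7 regions nearer to Olfr1507 and in 4 of the 17 nearer to Dad1. The highest in replicate 1 was at chr14:53795221-53795460, with 2.01 and 1.24. The region closest to Dad1 was at chr14:54152941-54153120, with 1.59 and 1.76 and RUNX letters.

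Ajap1 was nearest to 10, at 0.304 to 2.32 in replicate 1 and 0.356 to 1.02 in replicate 2, and Nphp4, across the same interval, to 9, at 0.291 to 3.56 in replicate 1 and 0.392 to 2.00 in replicate 2. Gm21863 was nearest to 10, of which 8 lay within 5.87 kb, at 0.316 to 0.532 in replicate 1 and 0.404 to 0.682 in replicate 2. None of those 8 had an overlapping footprint, and all 8 were higher in replicate 2 after centring. Smim15, Rpl38, Map3k1 and Klf14 were each nearest to 7, with highest values of 2.18, 1.75, 3.04 and 2.47 in replicate 1 and of 2.23, 1.42, 1.16 and 1.45 in replicate 2. The highest near Smim15 lay inside Zswim6, annotated here as a processed transcript, so the rule did not count Zswim6 as a protein-coding gene. The region at chr13:107888561-107888803, 81.5% G or C with 0.354 and 0.441, lay inside Zswim6 too. The highest near Klf14 in each replicate lay inside Lncpint, a long non-coding RNA gene.

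Lists of genes by cell type were compared by how many of their members had a far region nearest to them. Only genes next to far sequence can have one, and these were 2999 of 21911 protein-coding genes, of which 28.5% had one. The counts describe position and carry no test, and the lists were chosen with earlier results of these data known. Density fell with distance from a start, and the far sequence per gene differed between lists. It came to 1.10 Mb for 7 genes of erythroid transcription factors and 3.94 Mb for 9 hepatoblast genes. Densities of lists and of all genes are therefore not like for like.

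Genes of blood stem and progenitor cells had 30 regions. Of the 22 listed, 9 were next to far sequence and 8 had a region, which came to 9.47 regions per Mb of that sequence, against 1.87 per Mb over all genes. Myc and Runx1 had 10 of the 30 each. Beside them the list gave Kit, the stem cell factor receptor, with 3 regions 113 to 197 kb away, in the interval it shares with Pdgfra. Its values were 1.76 to 2.11 in replicate 1 and 0.682 to 0.911 in replicate 2, and all 3 had an overlapping footprint. Zfp36l2, an RNA-binding protein of blood progenitors, had 1 at 2.81 and 3.06, and Hmga2, a chromatin protein of fetal stem cells, 1 at 1.03 and 0.368. Cdk6, Mycn and Meis1 had 3, 1 and 1, with highest values of 0.785, 0.911 and 0.291 in replicate 1 and of 0.537, 0.972 and 0.332 in replicate 2.

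Erythroid transcription factors gave 3 of the 7 genes next to far sequence, with 14 regions or 12.7 per Mb. Klf3 had the 8 described. Sox6 and Bcl11a, repressors of embryonic and fetal globin genes, had 3 each, at 0.532 to 1.40 and 0.481 to 0.658 in replicate 1 and at 0.791 to 1.42 and 0.501 to 0.646 in replicate 2. Of the myeloid and megakaryocyte genes 2 were next to far sequence, and Maf, a macrophage regulator, had 1 region, at 0.519 and 0.374, or 1.71 per Mb for the list.

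Hepatoblast genes, of which 27 of 28 listed were found in the annotation, had 7 regions in all or 1.78 per Mb, at 4 of 9 genes next to far sequence. Foxa2, a pioneer factor of endoderm, had 3, at 0.468 to 0.582 in replicate 1 and 0.229 to 0.507 in replicate 2. Tbx3 had 2 that reached 0.734 and 0.712, and Prox1 had 1 at 0.418 and 0.718. Sox9, a bile duct regulator, had 1, higher in replicate 2, at 0.962 in replicate 1 and 1.74 in replicate 2. The list as a whole stood close to the 1.87 per Mb of all genes.

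Genes of other tissues were not free of far regions. Endothelial and mesenchymal genes had 13 at 6 of 13 genes, 3.05 per Mb. Mef2c, a factor of endothelium and muscle, had 2 that reached 4.34 and 2.01, Dcn, a proteoglycan of fibroblasts, 4 that reached 2.75 and 2.84, and Hlx, needed for liver growth, 3 that reached 1.91 and 1.64. Neural, muscle and limb genes had 16 at 7 of 15 genes, 2.12 per Mb. Bmp4, a growth factor, had the highest of these, 4.47 in replicate 1 and 1.57 in replicate 2, and Irx3, Sall1 and Sox11 had 4, 4 and 2 of at most 1.36.

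At the limit itself, the 3 regions just past 100 kb lay 100036, 100069 and 100101 bp from Ralgapa2, Irx4 and Chic2, with 1.96, 0.937 and 1.10 in replicate 1 and 1.497, 1.76 and 1.26 in replicate 2. The 3 just inside lay 99961, 99771 and 99640 bp from 4930544G11Rik, Slc25a26 and Hey1, with 1.58, 0.481 and 1.27 in replicate 1 and 0.338, 0.501 and 0.905 in replicate 2. Values on the 2 sides of the limit overlapped.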

How the data were processed

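DNase-seq of E13.5 liver was compared between 2 libraries. Members and gene lists were chosen with earlier results of these data known. Per the notes deposited with the files, peaks, false discovery rates and footprints were derived by the authors from the filtered alignment of each library alone, on mm10. The deposited peak lists hold a signal value whose normalization is not stated. The deposited p-value columns hold a false discovery rate per stretch of bases, with values up to 0.05, and for footprints a constant 0.01, read as the threshold. No source names the aligner or the callers, or says how reads with several matches were placed, so copied sequence may gain or lose signal.

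The longer of 2 peak lists per library was used, and peaks were merged by 1 bp. Signal was divided by its step to give counts, all whole within 0.05 of a step. Near-identical copies were found with 31-base words and, for named regions, blastn 2.17.0. Footprints widened by 5 bp were searched for motifs. Sequences and genes came from GRCm38.p6 and GENCODE M21. Python 3.11.15, pandas 2.3.3, numpy 2.4.6, scipy 1.17.1 and matplotlib 3.10.9 were used, and the scripts were tested on simulated data.

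Regions named are the 15 highest single-copy ones by geometric mean, the 5 highest of any copy number, the 3 on each side of the limit and the 10 longest chains. Genes named are the 15 nearest to most regions and listed genes nearest to 1 or more. The gene intervals were added beside these. Alternatives changed the list, overlap, limit, exclusion, footprint overlap, motif window, region value and centring, and left out each replicate. An item withheld for evaluation is not reported here.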

Additional observations from a re-analysis of the deposited data

How the results depend on the processing

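Of 108 alternative values, 56 stayed within 1.5 times the count of regions or within the spread used for the other values, and 52 moved. The number of far intergenic regions, 1526, was 768 with the shorter lists, 329 with the upper 50% of each library's peaks by value, 3146 at a limit of 50 kb and 655 at 200 kb. Their share of shared regions was 2.34, 1.14, 6.86 and 1.43% under the same 4 settings, 3.04% with an overlap of 100 bp, 4.01% with the 5 prime ends of genes in place of all transcript starts, 3.72% without the exclusion at non-coding starts and 3.15% with that exclusion at 2.5 kb. Density was 0.940, 0.403, 3.05 and 1.14 per Mb under the same 4 settings, 1.51 with 100 bp overlap, 2.16 with 5 prime ends and 2.04 without the exclusion. The median value was 0.886, 1.70, 0.734 and 0.557 in replicate 1 and 0.842, 1.28, 0.640 and 0.501 in replicate 2 under the same 4 settings, and 0.696 and 0.652 with 100 bp overlap. The footprint share was 71.2, 89.7, 50.9 and 41.2% under the same 4 settings, 54.4% with 100 bp overlap and 26.1% when footprints had to overlap by 10 bp. The share past 2-fold was 17.2% without centring. AGATAA was in 21.3% with the upper 50% of peaks and in 18.5% of whole regions, and CTCF in 21.2% with the shorter lists and 20.97% with the upper 50% of peaks. With 1 replicate left out the number was 4159 to 4414, the share 5.81 to 5.86%, the density 5.09 to 5.4001 per Mb, AGATAA 9.26 to 20.7% and CTCF 7.31 to 8.38%, while the medians were 0.392 in replicate 1 and 0.302 in replicate 2. Footprint overlap and 2-fold shares need both replicates and have no such value. Low counts limit single regions. No paired analysis was possible because the study has 1 group and no contrast.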
